A study of Mus musculus with 4 samples.

Results

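The 8 islet hormone genes described here are Ins1, Ins2, Iapp, Gcg, Sst, Ppy, Pyy and Ghrl. They were taken by name from the 34821 gene names among the non-control probes of a single-colour Agilent mouse array, and each is represented by 1 probe. All 8 were measured on 4 arrays. The study compared 2 groups, with 2 arrays in each. The first held islet-like clusters, formed in vitro from plastic-adherent, fibroblast-shaped pancreatic cells that the labels liken to mesenchymal stromal cells (MSC). Per the labels, these cells were moved to serum-free medium with albumin and an insulin, transferrin and selenium supplement in low-adherence dishes, given 0.3 mM taurine on day 3, and fed on day 7 with GLP-1, an incretin made from proglucagon, beside 100 mM nicotinamide and taurine raised to 3 mM, and taken at the end of day 10. The second group held islets of Langerhans, flushed from the same kind of collagenase digest after 48 h in culture according to their titles and growth protocol, although their descriptions call them freshly isolated. Both groups came from male Swiss albino mice aged 10 to 12 weeks, with the pancreata of 2 to 4 mice digested together. Nothing in the labels tells whether replicate samples stem from separate digests, so p-values here reflect array-to-array spread alone, and that spread may be technical. The fit also draws most of each gene's spread from all genes. A gene whose arrays differ widely thus gets a smaller SE than its own arrays give. No starting cells were among the arrays, so the comparison sets clusters against islets and not against the cells they came from.

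Each hormone marks an islet cell type. Beta cells make insulin and co-secrete islet amyloid polypeptide, alpha cells make glucagon, delta cells somatostatin, PP cells pancreatic polypeptide and the rare epsilon cells ghrelin, while peptide YY comes from some islet cells and from endocrine cells of the gut. Mice carry a pair of insulin genes, Ins2, which keeps the ancestral gene structure, and Ins1, a retroposed copy. All are made as precursors that are cut by prohormone convertases and stored in dense-core granules, and in adult islets hormone messages are among the most abundant.

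The probes decide what each value measures. Ins1 and Ins2 have nearly identical coding sequences, and Ppy and Pyy are related neighbours, so the probes of these pairs are shown, 5' to 3', as sequences in the deposited scanner files with their mm9 positions. Capitals mark the longest runs of letters that the probes of a pair have in common. These are 1 run of 7 bases for the insulin genes and 4 runs of 6 bases, some overlapping, for Ppy and Pyy. The Ins2 probe is shown by its first 30 bases.
Ins1 (chr19:52339385-52339444, + strand): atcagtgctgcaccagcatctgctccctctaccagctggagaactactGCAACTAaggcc
Ins2 (first 30 bases of the probe at chr7:149864566-149864625, - strand): GCAACTAgacccaccactacccagcctacc
Ppy (chr11:101961581-101961877, - strand): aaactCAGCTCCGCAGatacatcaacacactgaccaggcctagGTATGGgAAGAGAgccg
Pyy (chr11:101968311-101968370, - strand): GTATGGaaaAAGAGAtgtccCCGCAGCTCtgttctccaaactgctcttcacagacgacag
The run shared by the insulin probes begins at base 49 of the Ins1 probe and at base 1 of the Ins2 probe. Background knowledge of the pair places the Ins1 probe at the end of the coding sequence, where the messages of the pair are alike, and the Ins2 probe in the part that follows. Ins1 signal may therefore include Ins2 message, and its share was not tested. The Ppy probe of 60 bases spans 297 bases of the genome and so crosses an intron. It lies 6434 bases from the Pyy probe on chromosome 11, and both are on the minus strand. The other probes lay at chr6:142252275-142252334 (plus strand, Iapp), chr2:62312685-62312744 (minus, Gcg), chr16:23889776-23889835 (minus, Sst) and chr6:113666114-113666173 (minus, Ghrl). The polyadenylation signal AATAAA occurred in the Ins2, Iapp and Ghrl probes.

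Of the 8 hormone genes, 7 were lower in clusters than in islets, and Ghrl was higher. In the limma fit across 24595 genes, 7 of 8 passed the adjusted threshold of 0.05 as lower in clusters, where 28.2% of all genes did, and 1 of 8 as higher, where 26.6% of all genes did. Both cluster arrays lay below both islet arrays for those 7 genes, as they did for 42.7% of all genes, and above both for Ghrl, as for 37.2% of all genes. Iapp, Gcg and Ppy passed the filter on dim probes through the islet arrays alone, which left little room for any call but lower. With probes required well above background on all 4 arrays, 5 hormone genes were tested. Of these, 4 were called lower, as were 5313 of 20848 genes, and Ghrl higher, as were 5283. The median log2 fold change (clusters minus islets) of the 8 was -5.12, or -4.95 when Iapp, Gcg and Ppy, known only by a bound, are set to their bounds, against -0.10 for all genes. Of all genes, 5.59% were called lower with a log2 fold change at or below that of Pyy. In bulk RNA, fewer cells of a type and less RNA per cell cannot be told apart. Scaled values below are log2 signals relative to the 75th percentile of their own array, which is 0 on this scale, and signals are in scanner units before scaling.

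**Figure D1:**
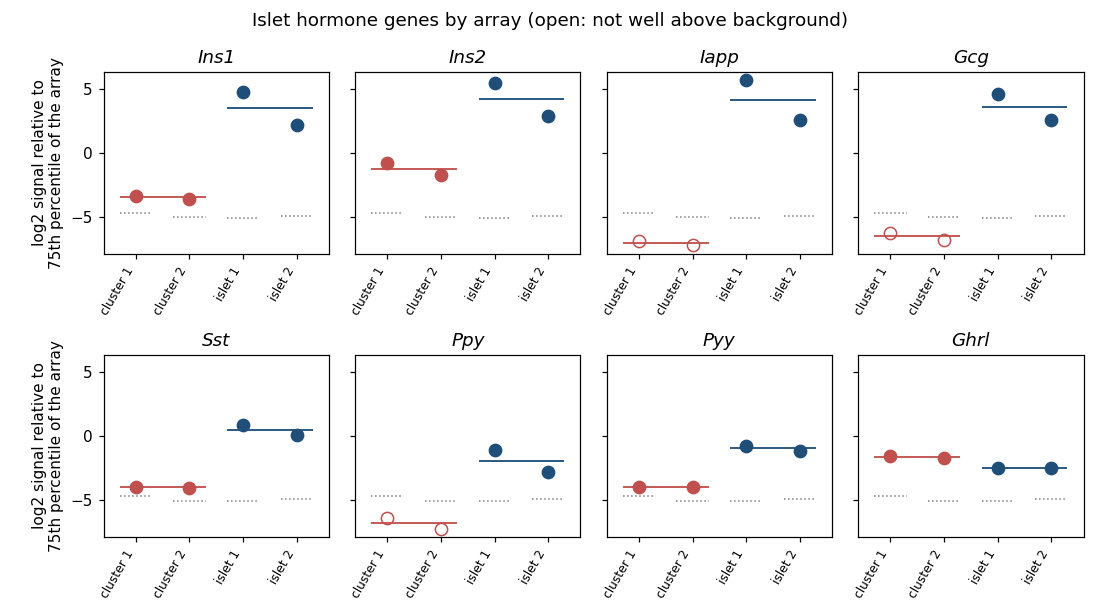
Log2 signal relative to the 75th percentile of the array (vertical axis) for the 8 hormone genes on the 2 cluster arrays (red) and the 2 islet arrays (blue), 1 point per array, open where not well above background, with group means as lines and each array's lowest well-detected signal as a dotted line. Of the 8, 7 genes lay lower on both cluster arrays than on both islet arrays, and Ghrl lay higher, at -1.52 and -1.69 in clusters against -2.45 and -2.45 in islets.

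Markers of other cell types also differed between the groups. The share of spots well above background was 59.7% and 62.3% for clusters, against 63.6% and 61.2% for islets. Of 18 mesenchymal stromal markers, 16 were higher in clusters and 0 lower, and their summed level, in units of the 75th percentile of the array, was 2400 and 2017 in clusters against 88.7 and 90.5 in islets. All 26 acinar markers tested were lower in clusters, with sums of 3.08 and 2.70 there against 9396 and 14137 in islets, so the arrays labelled islets carried exocrine RNA as well. Of the 26 acinar markers, 11 were well above background on both cluster arrays and 26 on both islet arrays. The part of these other cell types in the hormone values was not tested.

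The beta cell messages were lower in clusters. Ins1 read 32.2 and 32.5 signal units on the cluster arrays, against 8879 and 1111 on the islet arrays. On the scaled log2 axis it lay at -3.35 and -3.58 in clusters and at 4.77 and 2.15 in islets. The cluster arrays were close to each other, while the islet arrays differed by more than the cluster arrays did. The log2 fold change was -6.93 ± 0.66 (SE; limma adjusted p = 1.85e-05), or 122-fold lower in clusters. Islet replicate 1 alone gave 301-fold and islet replicate 2 alone 49.1-fold, so the size of the gap rests on which islet array is read.

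Ins2, the second insulin gene and the one with the ancestral structure, stayed nearer to the islet level. It read 186 and 120 in clusters against 14267 and 1807 in islets, or -0.82 and -1.70 in clusters against 5.45 and 2.86 in islets on the log2 axis. The fold change was -5.41 ± 0.68 (limma adjusted p = 0.000128), a 42.6-fold difference that was 105-fold against islet replicate 1 and 17.3-fold against islet replicate 2. The gap between the Ins2 and Ins1 probes was 2.53 and 1.88 in clusters but 0.68 and 0.70 in islets, so Ins2 differed less between groups than Ins1 on every array pairing, with no test of that difference. With normexp background correction, described below, the log2 fold changes lay closer together, at -5.37 for Ins1 and -4.87 for Ins2. The titles call the clusters insulin-producing, and both insulin genes were well above background on both cluster arrays. Under a fit with a variance trend and robust weights, neither insulin gene passed (adjusted p = 0.0566 for Ins1 and 0.0917 for Ins2), at unchanged fold changes. The SD (n = 2 per group) was 0.16 in clusters and 1.85 in islets for Ins1, and 0.62 and 1.84 for Ins2. The SE printed for each insulin gene rests largely on the spread of all genes.

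Insulin probes in clusters were brighter than nearly all negative controls. Of the 308 negative-control spots, 3 and 0 on the cluster arrays were at or above the Ins1 signal and 0 and 0 at or above the Ins2 signal. On the islet arrays none reached any hormone probe. In clusters the counts were 0 and 0 for Ghrl, 3 and 1 for Sst and 4 and 1 for Pyy. They were 8 and 4 for Gcg and 9 and 69 for Ppy, which were not well above background in clusters. The Ppy signal on cluster replicate 2 and some of the Gcg spots in clusters were the software's substitute for dim spots. A low count is thus not particular to insulin and does not by itself show expression. Iapp encodes islet amyloid polypeptide, or amylin, the peptide that beta cells release with insulin. It was not well above background on either cluster array, where its signals of 2.91 and 2.71 were the software's substitute for dim spots. They were reached by 308 and 27 of the 308 negative-control spots, counts that rank a substitute and do not measure Iapp. In islets Iapp read 16471 and 1498. Its log2 values were -6.82 and -7.16 in clusters, both from that substitute, against 5.66 and 2.59 in islets. It was at least 501-fold lower in clusters, or at least 1453-fold and 172-fold against islet replicates 1 and 2. The limma adjusted p of 1.89e-06 belongs to the fitted fold change and not to the bound, here and for other bounds below.

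The hormones of other islet cells followed in the same direction. Gcg, which encodes proglucagon, the precursor of glucagon and of GLP-1, had 10 spots on each array. Its mean signal was 4.79 and 3.82 in clusters, with 0 of 10 spots well above background on either array, against 7820 and 1471 in islets. Gcg lay at -6.26 and -6.74 in clusters and at 4.58 and 2.56 in islets, and was at least 341-fold lower in clusters (limma adjusted p = 3.61e-07; at least 689-fold and 169-fold against islet replicates 1 and 2). Sst, which encodes somatostatin, the inhibitor of insulin and glucagon release, also had 10 spots. Of these spots, 8 and 10 exceeded background clearly (the software's well-above-background flag) in clusters, with mean signals of 22.1 and 24.5, against 609 and 271 in islets. Its log2 values were -3.94 and -4.02 in clusters and 0.90 and 0.12 in islets, a fold change of -4.49 ± 0.29 (limma adjusted p = 1.34e-06), which is 22.5-fold and was 29.5-fold or 17.1-fold against islet replicates 1 and 2.

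Replicate spots gave the technical error within an array. For Gcg the coefficient of variation over 10 spots was 54.2% and 35.7% in clusters, where the signal was dim, against 5.95% and 3.14% in islets. Of the Gcg spots in clusters, 4 and 2 held the software's substitute, so these 2 cluster values are not purely technical error. For Sst it was 25.3% and 21.9% in clusters against 7.35% and 4.54% in islets. The distance between the islet arrays, 2.02 for Gcg and 0.78 for Sst on the log2 scale, was wider than the scatter between spots of an islet array.

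**Figure D2:**
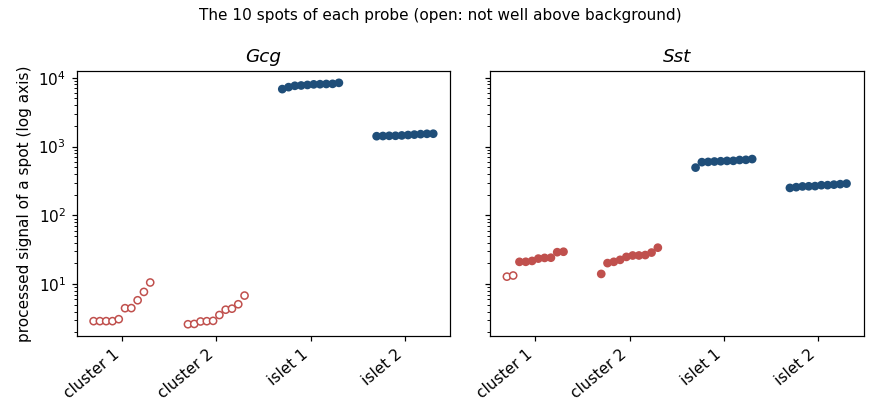
Processed signal in scanner units (log axis) of each of the 10 spots for Gcg and Sst on the 2 cluster arrays and the 2 islet arrays, sorted by signal within an array, with open points not well above background. The cluster spots of Gcg scatter widely at a low level (coefficient of variation 54.2% and 35.7%), some of them at the software's substitute value. The islet spots of both genes sit close together (3.14% to 7.35%).

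Ppy and Pyy encode related peptides, pancreatic polypeptide from PP cells and peptide YY, that act on the neuropeptide Y receptor family. Ppy read 4.01 and 2.64 in clusters, not well above background on either array, against 154 and 35.6 in islets. The 2.64 on cluster replicate 2 was the software's substitute and not a measured signal. The log2 values were -6.36 and -7.20 in clusters and -1.08 and -2.81 in islets, and Ppy was at least 7.46-fold lower in clusters (limma adjusted p = 3.62e-05; at least 13.6-fold and 4.09-fold against islet replicates 1 and 2). Pyy was well above background on all 4 arrays, at 20.8 and 24.9 in clusters against 189 and 115 in islets. Its log2 values of -3.99 and -3.96 in clusters and -0.78 and -1.12 in islets gave -3.02 ± 0.24 (limma adjusted p = 5.22e-06), or 8.12-fold lower in clusters. Of the 7 lower genes it was the one whose 2 islet arrays lay closest together. Normexp background correction, which adds an offset to every signal, gave smaller log2 fold changes for all of the 7, with -1.34 for Ppy, -1.48 for Pyy, -2.77 for Sst, -6.03 for Gcg and -6.58 for Iapp. Each was still called, but the values of Ppy, Gcg and Iapp are smaller than the bounds given here. The limma adjusted p with normexp was 1.49e-166 for Iapp. A value this small cannot rest on 2 residual degrees of freedom, so these calls say little on each gene's own spread.

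Ghrl, which encodes the acylated, growth-hormone-releasing and appetite-raising peptide ghrelin, was the exception. It read 115 and 120 in clusters against 59.5 and 45.5 in islets, and its log2 values were -1.52 and -1.69 in clusters against -2.45 and -2.45 in islets. The fold change was 0.85 ± 0.23 (limma adjusted p = 0.0113), or 1.80-fold higher in clusters, and it was small beside those of the other members. The call did not hold without cluster replicate 1 (0.76, adjusted p = 0.0637), without islet replicate 1 (0.85, adjusted p = 0.240), without islet replicate 2 (0.85, adjusted p = 0.259) or with normexp background correction (0.36, adjusted p = 0.206). Mboat4, the enzyme that acylates ghrelin, was on the array but did not pass the filter on dim probes.

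**Figure D3:**
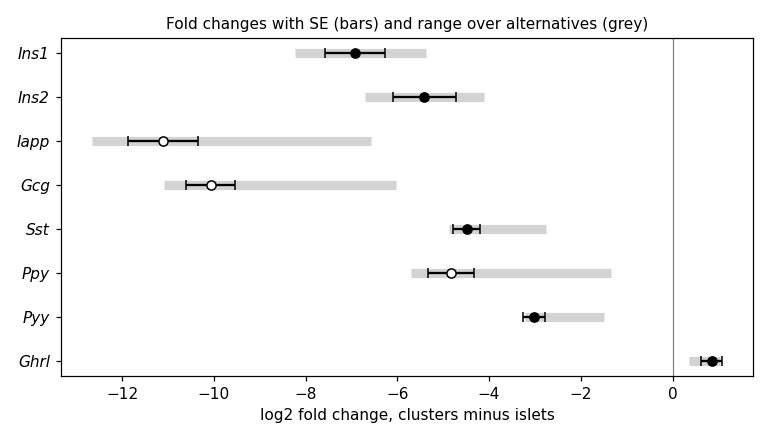
Log2 fold change, clusters minus islets, for the 8 hormone genes (points, with the standard error of the limma fit as bars and the range over alternatives in grey). Open points mark Iapp, Gcg and Ppy, not well above background in clusters, whose fitted values are no measured folds. Ins1 lies at -6.93 ± 0.66, Pyy at -3.02 ± 0.24 and Ghrl at 0.85 ± 0.23.

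Ranks within the array describe how bright each probe was among the non-control probes with a value on that array. In clusters the Ins1 probe stood at percentiles 51.9 and 51.1, against 95.0 and 85.7 in islets. Ins2 stood at 70.6 and 65.7 in clusters and at 96.5 and 88.8 in islets. Ghrl stood at 66.4 and 65.7 in clusters and at 59.2 and 58.3 in islets. Sst and Pyy sat near the middle in clusters, between 46.2 and 47.7, and between 68.2 and 79.6 in islets. The 3 genes not well above background in clusters stood between 11.2 and 26.1 there, and between 55.3 and 96.9 in islets. Iapp in clusters, and Ppy on cluster replicate 2, stood at the substitute value. No order among the hormones follows from this, since brightness also depends on the probe.

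**Figure D4:**
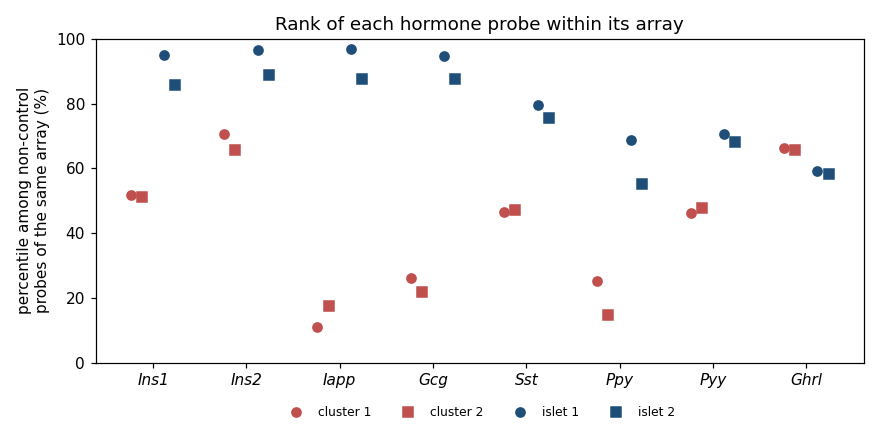
Percentile of each hormone probe among the non-control probes with a value on its array (0 dimmest, 100 brightest), on the 2 cluster arrays and the 2 islet arrays. Ins1, Ins2, Iapp and Gcg fall between 85.7 and 96.9 on islet arrays, and of these 4 only the insulin genes exceed 50 on cluster arrays.

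The islet arrays differed from each other by more than the cluster arrays for most hormones. Islet replicate 1 exceeded islet replicate 2 by 3.07 for Iapp, 2.62 for Ins1, 2.60 for Ins2, 2.02 for Gcg, 1.73 for Ppy, 0.78 for Sst, 0.34 for Pyy and 0.0014 for Ghrl on the log2 scale. Of the 8, 5 exceeded 1, as did 1.79% of all genes, and the median over all genes was -0.018. For Ins1, Ins2 and Iapp 99.9% or more of genes had a smaller difference in this direction. Cluster replicate 1 exceeded cluster replicate 2 by 0.23 for Ins1, 0.88 for Ins2, 0.34 for Iapp, 0.48 for Gcg, 0.08 for Sst, 0.84 for Ppy and 0.17 for Ghrl, and lay 0.02 below it for Pyy. Along the same axis, the median of the acinar markers was -0.52, with 2 of 26 higher on islet replicate 1, the median of 5 erythroid markers was -2.90, and that of the dense-core granule genes was 1.96. Their part in the hormone differences was not tested.

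**Figure D5:**
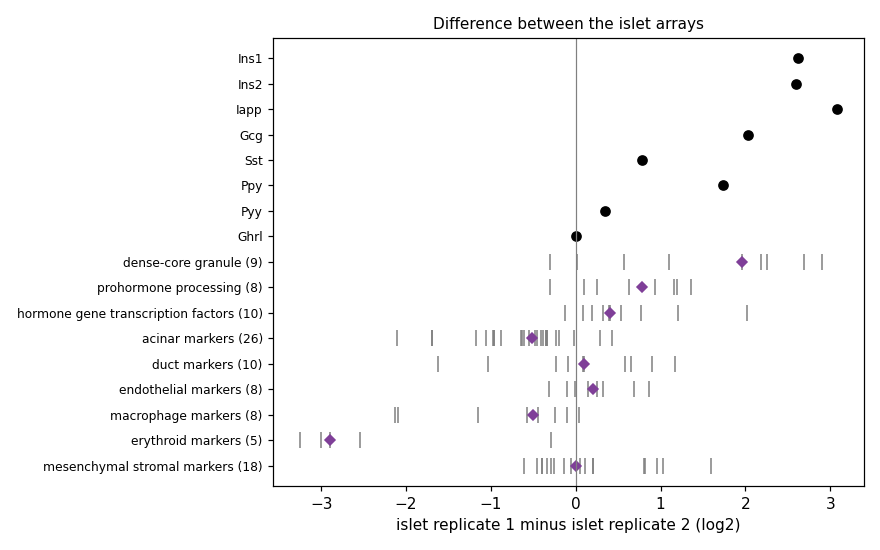
Islet replicate 1 minus islet replicate 2 on the log2 scale for each hormone gene (black points) and for the genes of 9 lists (grey ticks, with the number tested in brackets and the median as a diamond). Of the 8 hormone genes, 5 lie between 1.73 and 3.07, while the acinar median lies at -0.52 and the erythroid median at -2.90.

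Genes with the pattern most like the insulin genes were ranked by root mean square difference of centred log2 values over the 4 arrays. For Ins1 these were Msln (0.139), Chgb (0.321), Fam25c (0.444), Serpina6 (0.458) and Cfi (0.537), and for Ins2 Chga (0.220), Syce1 (0.307), Insm1 (0.318), Nefh (0.526) and Pik3cg (0.543). Chga and Chgb encode the granule proteins chromogranin A and B, and Insm1 encodes a zinc-finger factor of endocrine cells. Among the hormones, Ins2 and Ppy lay 0.421 apart, Iapp and Gcg 0.643 and Ins1 and Ins2 0.790. These distances are descriptions over 4 arrays. Of the 10 genes, all but Chga and Chgb lay on both cluster arrays below the lowest signal well above background there, so their distances rest partly on values without order, as do those of Iapp, Gcg and Ppy.

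Lists of genes that process, package, control and receive the hormones are read against the 26.6% of all genes called higher and the 28.2% called lower. Of 8 prohormone processing genes tested from a list of 9, 4 were higher and 3 lower in clusters, with 1 not passing and a median log2 fold change of 0.65. Pcsk2, the convertase that finishes insulin and glucagon processing, lay at -1.17 and -2.33 in clusters and at 1.82 and 0.46 in islets, a fold change of -2.89 ± 0.48 (limma adjusted p = 0.000737). The call was missed without cluster replicate 2 (adjusted p = 0.0506). Scg5, its chaperone 7B2, fell by 2.56 on the log2 scale (adjusted p = 0.00028), and was called in 16 of 16 alternatives. Qpct, a glutaminyl cyclase, was higher by 3.81 (adjusted p = 2.78e-06). Cpe, the carboxypeptidase that trims the cut ends, was higher by 1.76 (adjusted p = 0.00247), and Pcsk1, the other convertase, by 0.84 (adjusted p = 0.0469). Cpe missed the threshold without cluster replicate 1 (adjusted p = 0.0773), cluster replicate 2 (0.0625) or islet replicate 2 (0.0870). Pcsk1 was called in 6 of 16 alternatives, and leaving out islet replicate 2 gave 0.37 (adjusted p = 0.686), cluster replicate 1 gave 0.80 (0.234) and cluster replicate 2 gave 0.89 (0.199).

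Of 9 dense-core granule genes tested from a list of 10, 5 were lower and 2 higher in clusters, with a median of -3.43 against -0.10 for all genes. Chgb lay at -4.20 and -4.31 in clusters and at 4.65 and 1.96 in islets (-7.56 ± 0.67, limma adjusted p = 1.17e-05), and Chga averaged -4.28 ± 0.39 in clusters and 1.37 ± 1.55 in islets (SD, n = 2 each), a log2 fold change of -5.65 ± 0.58 (SE; limma adjusted p = 3.03e-05). Over the 16 alternatives the fold change of Chgb ran between -8.91 and -5.42 and that of Chga between -6.74 and -3.71, and each missed the threshold in 1, the variance trend fit (adjusted p = 0.0507 for each). Resp18, a regulated endocrine protein, was at least 15.1-fold lower in clusters, though with normexp its log2 fold change was -2.05, under that bound. Ptprn, the granule membrane protein IA-2, went the other way at 1.97 and 1.73 in clusters and -3.73 and -4.30 in islets (5.87 ± 0.27, adjusted p = 1.27e-07).

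Of 10 transcription factors that act on hormone genes tested from a list of 14, 5 were lower and 3 higher, with a median of -1.17. Pdx1, which binds insulin and somatostatin promoters, was at least 9.76-fold lower in clusters (limma adjusted p = 3.43e-06), Insm1 at least 12.1-fold (adjusted p = 1.55e-05) and Foxa2 at least 1124-fold (adjusted p = 2.14e-08). The bound of Insm1 was 24.3-fold against islet replicate 1 and 5.99-fold against islet replicate 2. With normexp the log2 fold changes were -1.44 for Pdx1, -1.97 for Insm1 and -7.64 for Foxa2, all under these bounds. Hhex, a delta-cell factor, lay at -6.82 and -4.85 in clusters, of which only cluster replicate 2 was detected, and at 1.14 and 0.60 in islets (-6.71 ± 0.53, limma adjusted p = 5.21e-06). Normexp gave -3.31, leaving out cluster replicate 1 gave -5.72, and leaving out cluster replicate 2 gave -7.69. Isl1 was higher in clusters at 3.59 and 3.33 against -3.13 and -3.90 in islets (6.97 ± 0.30, limma adjusted p = 8.24e-08). Mafa and Nkx6-1 did not pass, with log2 fold changes of 0.40 (adjusted p = 0.180) and -0.16 (adjusted p = 0.691). Neurod1 was called higher by 1.68 (adjusted p = 0.0229), but in 5 of 15 alternatives only. It gave 0.87 (adjusted p = 0.285) without cluster replicate 2 and 1.08 (adjusted p = 0.126) without islet replicate 2.

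Of 13 hormone receptor genes tested from a list of 20, 3 were higher and 4 lower, near the 26.6% and 28.2% of all genes, with a median of -0.35. Npy1r, a receptor for peptide YY and neuropeptide Y, lay at 2.60 and 2.42 in clusters and at -4.54 and -6.68 in islets, where 1 of the 2 arrays was well above background (8.13 ± 0.55, limma adjusted p = 1.81e-06). Ramp3, which joins the calcitonin receptor to form an amylin receptor, was higher by 5.04 (adjusted p = 1.74e-07) and Igf1r by 1.50 (adjusted p = 0.000407). Glp1r, the receptor of the GLP-1 added to the medium, lay at -2.87 and -2.87 in clusters and at -1.96 and -1.46 in islets, a log2 fold change of -1.16 ± 0.25 (limma adjusted p = 0.00387). That call was missed without cluster replicate 1 (adjusted p = 0.0502) and without islet replicate 2 (-0.91, adjusted p = 0.217). Insr had a fold change of -0.21 and did not pass (adjusted p = 0.484), but it was called lower with the mean of its probes (-1.43) and with normexp (-1.03).

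Of 13 other gut and neural peptide hormones tested from a list of 20, 6 were higher and 6 lower in clusters, with a median of 0.51. Cck, which encodes cholecystokinin, lay at 5.66 and 5.52 in clusters and at -1.55 and -1.51 in islets (7.12 ± 0.23, limma adjusted p = 1.84e-08), and was called in 16 of 16 alternatives. Npy, the neuropeptide Y gene, lay at 2.22 and 1.95 in clusters and -3.65 and -3.67 in islets (5.75 ± 0.23, adjusted p = 6.43e-08). Tac1, which encodes substance P, lay at -2.98 and 2.49 in clusters and was not well above background in islets. It was at least 26.3-fold higher in clusters (adjusted p = 0.0126), but it was called in 7 of 15 alternatives, and normexp gave a log2 fold change of 2.50. Leaving out cluster replicate 1 gave 7.48, and leaving out cluster replicate 2 gave 2.01. Edn1, which encodes the vasoconstrictor endothelin 1, was at least 41.3-fold lower in clusters, though with normexp its log2 fold change was -3.14, under that bound. 

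The promoters of 4 hormone genes that were lower in clusters are shown with the short motifs searched in them. Each is the 250 bases before the RefSeq start in GRCm38.p6, 5' to 3'. RefSeq promoters were matched for 7 of the 8 genes, all but Ins2. Capitals mark TATAAA on the gene strand, the motif CATCTG on either strand (in Gcg it lies on the other and reads CAGATG) and the palindrome TGACGTCA.
Ins1 (chr19:52264047-52264296, + strand): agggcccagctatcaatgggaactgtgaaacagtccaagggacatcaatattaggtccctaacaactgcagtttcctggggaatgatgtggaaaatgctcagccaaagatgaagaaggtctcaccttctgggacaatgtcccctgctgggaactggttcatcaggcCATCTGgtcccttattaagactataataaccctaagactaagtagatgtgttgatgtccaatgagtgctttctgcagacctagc
Iapp (chr6:142298175-142298424, + strand): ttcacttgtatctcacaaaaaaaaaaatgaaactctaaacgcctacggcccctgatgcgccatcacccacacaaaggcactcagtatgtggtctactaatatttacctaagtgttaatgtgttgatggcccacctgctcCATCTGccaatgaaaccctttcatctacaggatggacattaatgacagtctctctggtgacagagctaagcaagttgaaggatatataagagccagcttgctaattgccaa
Gcg (chr2:62483654-62483903, - strand): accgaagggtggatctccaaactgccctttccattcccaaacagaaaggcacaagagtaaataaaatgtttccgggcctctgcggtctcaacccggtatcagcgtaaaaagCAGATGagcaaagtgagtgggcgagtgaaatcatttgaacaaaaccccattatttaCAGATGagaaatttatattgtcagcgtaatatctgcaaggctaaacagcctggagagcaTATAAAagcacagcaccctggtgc
Sst (chr16:23890845-23891094, - strand): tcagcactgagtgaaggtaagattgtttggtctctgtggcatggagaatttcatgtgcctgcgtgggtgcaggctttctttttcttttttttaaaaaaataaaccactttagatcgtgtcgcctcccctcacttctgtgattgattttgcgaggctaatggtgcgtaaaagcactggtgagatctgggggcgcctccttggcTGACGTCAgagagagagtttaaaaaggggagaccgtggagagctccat
CATCTG, the E-box read by Neurod1 and its partners, occurred 1 time in Ins1, 1 time in Iapp and 2 times in Gcg, and in 14.4% of 32851 promoter windows of the same length searched on both strands. TGACGTCA, the cyclic AMP response element, occurred in Sst alone among these genes, 48 bases before the start, and in 1.55% of windows. TATAAA occurred in Gcg and Ppy, and in 7.59% of windows on the gene strand. TAAT, the core letters of homeodomain sites, was found on both strands 3 times in Ins1, 5 times in Iapp, 2 times in Gcg and 1 time in Sst, and in 54.9% of windows. None of these letters was in the windows of Pyy or Ghrl, which says nothing about the factors. Pyy was lower and Ghrl higher in clusters.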

How the data were processed

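Sample titles gave the groups and replicate numbers. Per the labels, polyadenylated RNA was primed with oligo-dT from 500 ng of total RNA, amplified with Cy3 and hybridised. The deposited scanner files give each spot's intensity, unlogged, as made with Agilent Feature Extraction 11.5.1.1 per the file headers, with a processed signal that was background-subtracted by the software and probe positions on mm9. The deposited value table holds log2 values of the same arrays. Its columns correlated with the log2 scanner values at r = 0.99995 or higher and differed from the scaled values by a median between -0.097 and 0.0085, so scale and direction are known and genes were not centred. Its column medians were -3.61 and -3.70 in clusters and -3.50 and -3.37 in islets. The table entered as an alternative. The software's flags were used as deposited (codes with no unit).

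Processed signals were divided by the 75th percentile of their array and logged (log2). Control and non-uniform spots (510 and 2 on the cluster arrays, 26 and 4 on the islet arrays) were left out, spots of a probe were averaged, and 34971 of 55681 probes, those detected well above background on both cluster arrays or on both islet arrays, were kept. A probe counted as well above background when over 50% of its spots did. Of several probes of a gene name the one brightest on average over the 4 arrays was used, giving 24595 genes. No spot was saturated. Groups were compared as clusters minus islets with lmFit and eBayes of limma 3.58.1 under R 4.3.3 (2-sided, without covariates, Benjamini-Hochberg over all genes, threshold 0.05, 2 residual and 9.06 total degrees of freedom). A gene not well above background on either array of the dim group is given as "at least" a fold: the bright group's mean was set against a dim-group mean in which each array contributed its own signal or, if higher, the lowest signal detected well above background there. A p-value printed beside such a bound is that of the fitted fold change and does not test the bound. Of the total degrees of freedom, 7.06 come from the spread of all genes. The number of arrays limits the precision.

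The members, the gene lists and the tests were chosen with earlier results of these data known. The text names the 8 members, up to 3 called genes per direction from each list with the largest changes, Pdx1, Mafa, Neurod1, Nkx6-1, Isl1, Pcsk1, Pcsk2, Cpe, Chga, Chgb, Glp1r and Insr, and 5 genes nearest in pattern to each insulin gene. Of the genes so taken the leading ones are given. The lists of duct, endothelial, erythroid and macrophage markers were also tested. In clusters 1 of 10 duct markers was higher and 9 lower, 8 of 8 endothelial markers were lower, 4 of 5 erythroid markers were lower, and of 8 macrophage markers 1 was higher and 4 lower. Alternatives were normexp background correction with an offset of 50, other scalings, non-uniform spots kept, other filters on dim probes, the mean of a gene's probes, a floor for dim signals, a variance trend with robust weights, the authors' values, a replicate block and leaving out each array. Promoter sequences are from RefSeq (GRCm38.p6).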

Additional observations from a re-analysis of the deposited data

How the results depend on the processing

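Of the 8 hormone genes, Sst (-4.88 to -2.77) and Pyy (-3.21 to -1.48) kept their direction and stayed past the threshold in all 16 alternatives. Iapp (-12.65 to -6.58), Gcg (-11.08 to -6.03) and Ppy (-5.70 to -1.34) did so in the 15 that could be fitted. These 3 genes passed the filter on dim probes through the islet arrays alone, which left little room for any call but lower. Their calls in the alternatives therefore add little. Ins1 (-8.23 to -5.37) and Ins2 (-6.71 to -4.11) lost the call under 1 of 16 alternatives, the variance trend with robust weights, at -6.93 and -5.41. With normexp, the filter on all 4 arrays and the floor for dim signals, the limma adjusted p of Ins1 was 1.23e-111, 5.08e-124 and 1.65e-50. Such values cannot rest on 2 residual degrees of freedom. Calls under these settings, for any gene, therefore say little on its own spread. Ghrl (0.36 to 1.04) was called in 12 of 16. It missed the threshold with normexp at 0.36, and leaving out 1 array gave between 0.76 and 0.93. The cause was not tested. With the filter at probes well above background on all 4 arrays, 5 of the 8 genes and 5 of the 8 probes were tested and called, because Iapp, Gcg and Ppy are dim in clusters. Among the genes that pass the filter the median percentile of the 8 in clusters was 14.4, against 46.9 among non-control probes with a value, since dim probes are no longer counted below them. Of all genes 13492 were called, and between 7649 and 10119 when 1 array was left out, with 8265 without islet replicate 1 and 7649 without islet replicate 2, where the lone islet array is assumed to vary like the cluster arrays. The centre of all log2 fold changes shifted by 0.20 under median scaling, by -0.19 when the percentile was taken over probes detected everywhere, and by 0.12 without cluster replicate 2. Over all genes, the difference between replicates 1 and 2 in clusters did not correlate with that in islets (r = -0.0235). With 2 arrays per group this cannot tell whether same-numbered samples share a digest. With the replicate block all 8 hormone genes were called, with 11306 of all genes. All 4 arrays are on 1 slide and each holds 1 sample, so no batch could be tested within the groups. At background level, signal differences in clusters cannot be read for Iapp, Gcg and Ppy.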
